A study of Homo sapiens with 8 samples.

Results

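Amino acids cross cell membranes on carriers of the solute carrier (SLC) families, and the genes considered here are those of the SLC1, SLC3, SLC6, SLC7, SLC36, SLC38 and SLC43 families in H9, a human embryonic stem cell line in wide use, and in the KDR+CD31+ cells made from it. They were chosen by symbol alone, as every gene with a family prefix followed by a number, which gave 56 of the 19775 genes with a probe set annotated to a single symbol. No expression value entered the choice of genes. Where a gene had several probe sets, the one with the highest mean over the 8 arrays stood for it. The 56 genes had 138 probe sets, and 20 of the genes had only 1.

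Arrays were made from 4 groups with 2 arrays each. The sorted groups were H9 cells kept for 4, 6 or 8 days in StemPro34, a serum-free medium that here held BMP-4 (a growth factor that drives mesoderm formation) and Glutamax, and then sorted by flow cytometry for KDR, a receptor of vascular endothelial growth factor, and CD31, the product of PECAM1 and an adhesion protein of endothelium. The day 0 group was undifferentiated and unsorted H9, and the line was maintained on mouse embryonic fibroblast feeders. All groups come from this 1 line. The labels call the arrays biological replicates without saying that they came from separate cultures, so a p-value here covers the spread of these arrays and no more. Day, medium and sorting changed together between day 0 and every sorted group and cannot be told apart.

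Carriers of the SLC1 and SLC6 families use the sodium gradient to concentrate their substrates, glutamate, neutral amino acids, taurine and creatine among them, and the SLC38 family carries glutamine and other small neutral amino acids. Most SLC7 proteins are exchangers that reach the cell surface only when bound to a heavy chain of the SLC3 family, while a branch of SLC7 carries arginine and lysine without one. In proliferating cells the exchangers for leucine and for cystine feed protein synthesis and glutathione, and many of these genes are textbook targets of ATF4, the transcription factor of the amino acid response.

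Levels are deposited array intensities, which have no physical unit, and are comparable between arrays for 1 probe set but not between genes. Changes are differences of group means of log2(intensity + 32), given with the standard error (SE) from a limma fit over all 8 arrays, and a gene is called where its p, adjusted by Benjamini-Hochberg over all 13647 genes tested, is under 0.05. Folds are on the same offset scale, which shrinks those of dim genes. The array medians lay between 88.7 and 93.2. The GAPDH ratio of 3' to 5' probe sets, a control for RNA integrity, was 2.15 to 3.73 on the sorted arrays and 1.71 and 1.91 on the day 0 arrays, without overlap. The same ratio for ACTB was 9.18 to 30.99 on the sorted arrays and 8.92 and 10.4 on the day 0 arrays, which overlap, and was highest on the first replicates of day 6 (30.99) and day 4 (18.96). The part of both ratios in the results was not tested. The first replicates of days 4 and 6 were unlike their partners, with 909 and 1262 genes over 2-fold apart within those groups, against 215 at day 8 and 1 at day 0. As a check of the labels, KDR was 24.0-fold, 23.1-fold and 24.2-fold higher at days 4, 6 and 8 than at day 0 and PECAM1 85.6-fold, 89.3-fold and 103-fold, which the sort selects for, and the pluripotency factor SOX2 fell in each comparison. The day 8 arrays of SOX2 were far apart, at 605 and 38.5, against 7608 and 7695 at day 0. All 12 endothelial markers lay above the array median on each sorted array.

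Of the 56 transporter genes, 39 passed the filter, which asked for a value above the array median on at least 2 arrays. The other 17 were SLC1A2, SLC38A11, SLC38A4, SLC3A1, SLC6A12, SLC6A13, SLC6A14, SLC6A18, SLC6A20, SLC6A4, SLC6A5, SLC6A9, SLC7A10, SLC7A13, SLC7A14, SLC7A4 and SLC7A9, with intensities between 10.6 and 149. Of these, 16 lay above the array median on 0 arrays and SLC3A1 on 1, so nothing is said of their changes from these probe sets. SLC38A5 and SLC6A15 passed through the 2 day 0 arrays alone, where they were high, and their differences from day 0 were in part built in by the filter. The genes tested lay above the median on all 8 arrays in 35 cases.

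At day 4, 11 of the 39 tested transporter genes were called against day 0, which is 28.2%, where the background over all genes tested was 18.4%. Of the 11, 9 were lower and 2 higher, that is 23.1% lower and 5.13% higher, where 9.91% of all genes tested were called lower and 8.52% higher. At day 6 the count was again 11, with 9 lower and 2 higher, against a background of 23.4% in either direction, 13.6% lower and 9.73% higher. At day 8, 12 genes were called, 9 lower and 3 higher, or 30.8%, against 24.5% in either direction, 14.1% lower and 10.4% higher over all genes. The share called in either direction thus lay nearer to the background at days 6 and 8 than at day 4. The median change of the 39 genes was -0.05, -0.10 and -0.14 at days 4, 6 and 8, and that of all genes tested was 0.02, -0.03 and -0.03. Each of the 3 comparisons uses the same pair of day 0 arrays, so their calls are not independent. Without replicate 1 of day 0 the counts at days 4, 6 and 8 were 3, 6 and 4, where 7.26%, 8.83% and 8.92% of all genes were called. Without replicate 2 of day 0 they were 6, 7 and 6, beside 7.3%, 8.88% and 9.27% of all genes. At day 8 the count was 6 without that day's replicate 2, beside 11.3% of all genes.

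In all, 14 transporter genes were called in at least 1 comparison with day 0, and 25 of the tested genes in none. The genes lower in all 3 comparisons were SLC1A3, SLC38A1, SLC38A5, SLC6A15, SLC6A8, SLC7A3, SLC7A5 and SLC7A8. SLC7A7 and SLC43A3 were higher in all 3. SLC7A11 was called lower at day 4, SLC3A2 lower at day 6, SLC6A6 lower at day 8 and SLC1A4 higher at day 8. In a bulk sample a loss of cells that express a gene and a loss of its RNA within each cell cannot be told apart. The summed intensity of 11 marker genes of undifferentiated cells was 12632 to 16758 on the sorted arrays and 70915 and 67962 on the day 0 arrays, with 6 to 8 of the 11 still above the array median on each sorted array. It moved with every fall described here, and its part in them was not tested.

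**Figure D1:**
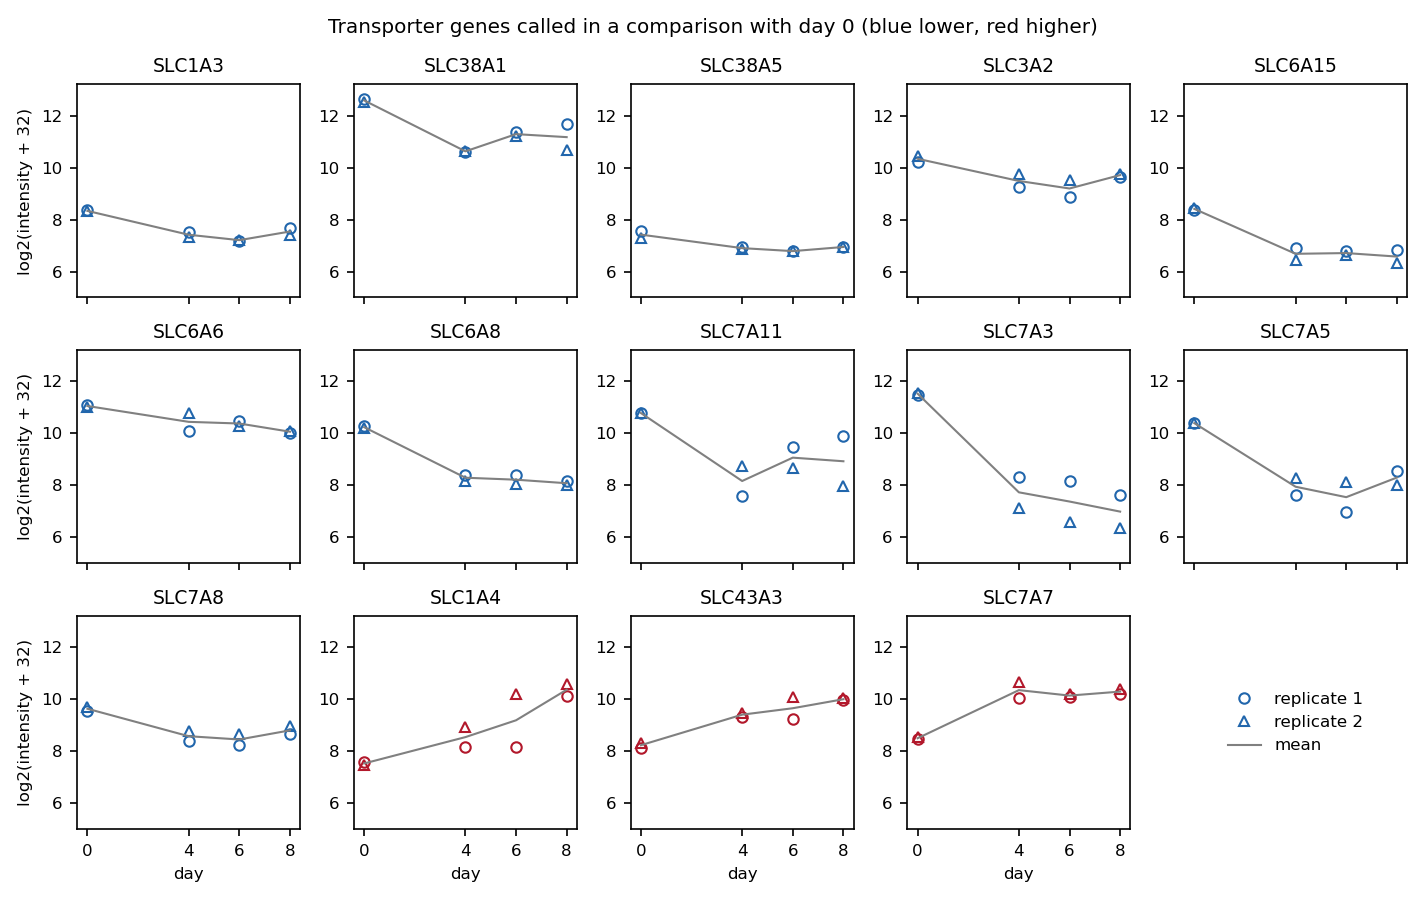
The vertical axis is log2(intensity + 32) and the horizontal axis the day, for the 14 transporter genes called in at least 1 comparison with day 0, with circles for replicate 1, triangles for replicate 2, a grey line through the group means, blue for genes called lower and red for genes called higher. The 2 day 0 arrays lie close together in each panel, and the sorted arrays of SLC7A3, SLC7A11 and SLC1A4 spread widest.

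Proximal promoter sequence was examined for 4 of the called genes that carry one of 4 motifs textbook knowledge ties to amino acid, oxidative or growth control. They are the pair whose proteins form the leucine exchanger (SLC7A5 and SLC3A2), the carrier SLC38A1 and the rising SLC1A4. The stretches are from RefSeq on GRCh38.p14 and run 5′ to 3′ on the strand of the gene, from 150 bases before an annotated start site to 10 bases after it. The window taken for each gene was one that holds a match. The site of SLC7A5, at 87869507, is where the annotated gene begins. Those of SLC3A2 (62881699), SLC38A1 (46266516) and SLC1A4 (64989399) lie inside the annotated gene. On their own strand these genes begin at 62856109, 46269043 and 64988479. Capitals mark the motif matches.
SLC7A5, chr16:87869498-87869657, minus strand: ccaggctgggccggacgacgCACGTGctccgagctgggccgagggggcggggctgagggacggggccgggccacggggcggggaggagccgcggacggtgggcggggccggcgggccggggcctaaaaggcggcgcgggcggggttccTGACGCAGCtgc
SLC3A2, chr11:62881549-62881708, plus strand: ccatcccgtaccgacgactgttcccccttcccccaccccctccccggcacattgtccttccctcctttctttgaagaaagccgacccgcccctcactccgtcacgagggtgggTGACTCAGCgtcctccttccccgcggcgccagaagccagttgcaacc
SLC38A1, chr12:46266507-46266666, minus strand: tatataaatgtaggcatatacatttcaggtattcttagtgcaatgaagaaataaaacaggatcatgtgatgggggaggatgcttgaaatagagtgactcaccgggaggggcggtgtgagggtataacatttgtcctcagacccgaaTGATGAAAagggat
SLC1A4, chr2:64989249-64989408, plus strand: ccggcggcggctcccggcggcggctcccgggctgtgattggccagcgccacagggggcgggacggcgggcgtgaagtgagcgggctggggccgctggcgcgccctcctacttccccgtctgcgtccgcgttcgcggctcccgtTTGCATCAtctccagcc

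The C/EBP-ATF element, TGATGNAA, is the letters bound by ATF4 with a C/EBP partner, and the capitals in SLC38A1 and, on the opposite strand, in SLC1A4 mark it. Searched on both strands, it was in 6 of 64 windows of 300 bases (250 before and 50 after a start site) that the promoter table holds for 42 of the 56 genes, or 9.38%, where 3.62% of all 35116 windows held it. The 6 genes were SLC1A3, SLC1A4, SLC1A5, SLC3A2, SLC38A1 and SLC7A1, which include genes called lower, the gene SLC1A4 called higher and genes called in neither direction. The match in SLC3A2 lies past the stretch printed. TGACNNNGC, the core of the antioxidant response element, was in 10.9% of the transporter windows and 13.4% of all windows, and its matches are capitals in SLC7A5 and SLC3A2. CACGTG, the E-box of MYC and the TFE factors, was in 15.6% of the transporter windows and 7.26% of all windows, and is the other run of capitals in SLC7A5. CCGGAAGT, an ETS site, was in 1.56% of the transporter windows and 4.14% of all windows. No motif overlapped another in these stretches, and a match is a description of letters, not a bound site.

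The heteromeric exchangers and their heavy chains held 4 of the genes called lower and 1 of those called higher. Of 8 light chains 5 were tested, of which 3 were called lower and 1 higher at day 4, and 2 lower and 1 higher at days 6 and 8. Over all genes tested, 9.91%, 13.6% and 14.1% were called lower and 8.52%, 9.73% and 10.4% higher at days 4, 6 and 8. The counts here and in the groups below rest on few genes and are to be read against these shares. SLC7A5 (LAT1), the exchanger that imports leucine and other large neutral amino acids in return for glutamine, had intensities of 1325 and 1304 (day 0), 165 and 277 (day 4), 94.1 and 245 (day 6), then 348 and 230 (day 8). Every sorted array was far below both day 0 values. It fell, with log2 changes of -2.45, -2.85 and -2.09 at days 4, 6 and 8 (SE 0.41 each) and adjusted p of 0.00714, 0.00338 and 0.0114 in limma. The pseudogenes SLC7A5P1 and SLC7A5P2 are annotated apart, and whether its probes also read them was not tested.

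SLC3A2, the heavy chain shared by most light chains of this family and known as CD98, read 1172 and 1364 (day 0), 571 and 822 (day 4), 441 and 696 (day 6), then 772 and 843 (day 8). Every sorted array lay below both day 0 arrays, with the lowest value on replicate 1 of day 6. The change was -1.14 ± 0.27 at day 6 (adjusted p 0.0254 in limma), the only call, and -0.85 at day 4 (adjusted p 0.0782) and -0.63 at day 8 (adjusted p 0.141) did not pass.

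SLC7A8 (LAT2), a second exchanger of neutral amino acids, had 723 and 802 (day 0), 301 and 405 (day 4), 274 and 368 (day 6), then 368 and 465 (day 8). No sorted array reached the day 0 values, and the log2 changes of -1.06, -1.18 and -0.83 (SE 0.23 each) had adjusted p of 0.0197, 0.0112 and 0.0389 in limma. SLC7A11 (xCT), which imports cystine in exchange for glutamate, read 1713 and 1753 (day 0), 159 and 401 (day 4), 679 and 372 (day 6), then 919 and 217 (day 8). All 6 sorted arrays were below day 0, but the pairs at day 4 and day 8 were over 2-fold apart, and the SE was 0.67. It fell by 2.62 at day 4 (adjusted p 0.0371), while its changes of -1.72 at day 6 and -1.86 at day 8 did not pass (adjusted p 0.113 and 0.0862). The other tested probe set of SLC7A11 changed by -2.46, -1.84 and -1.66. In a limma fit of every probe set it was called at days 4 and 6 but not at day 8 (adjusted p 0.0183, 0.0443 and 0.0585).

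SLC7A7, the light chain that exports arginine and lysine in exchange for neutral amino acids, ran the other way, with 321 and 338 (day 0), 1030 and 1571 (day 4), 1064 and 1129 (day 6), then 1132 and 1320 (day 8). Every sorted array was far above both day 0 values. It rose by 1.85, 1.64 and 1.80 on the log2 scale (SE 0.23 each), or 3.61-fold, 3.12-fold and 3.47-fold, with adjusted p of 0.00218, 0.00323 and 0.00217. SLC7A7 is also expressed in monocytes and macrophages, and the summed intensity of 10 myeloid and platelet markers was 863 and 866 (day 0), 919 to 1715 on the arrays of days 4 and 6, and 14912 and 2225 (day 8), with 6 to 8 of the 10 above the array median on the sorted arrays and 5 at day 0. The part of these markers in the rise of SLC7A7 was not tested. SLC7A6, whose product carries out the same exchange with the same heavy chain, lay between 643 and 782 on all 8 arrays, and its change at day 8 was -0.03 with a 95% interval of -0.43 to 0.37.

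The calls of SLC7A7 held with every array left out in turn, and so did the day 6 call of SLC7A5. The day 4 and day 8 calls of SLC7A5 were lost without replicate 1 or replicate 2 of day 0 (adjusted p up to 0.0539 and 0.0742 in limma), and the day 8 call also without replicate 2 of day 8 (0.085). Those of SLC7A8 were lost without either day 0 array in each comparison, at day 4 also without replicate 1 of day 4, and at day 8 without either day 8 array (adjusted p up to 0.152, 0.096 and 0.213 at days 4, 6 and 8). With its probe sets averaged, the day 8 change of SLC7A8 was -0.29 (adjusted p 0.345). SLC7A11 was no longer called when either day 0 array (adjusted p 0.169 and 0.174) or the first array of day 4 (0.153) was left out. That of SLC3A2 was lost without either day 0 array, replicate 1 of day 6 or either day 8 array, and in a fit of the day 0 and day 6 arrays alone (adjusted p from 0.0506 to 0.171).

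Among the carriers of cationic amino acids, 1 of 3 tested genes was called. SLC7A3 (CAT-3), an arginine and lysine uniporter, had 2850 and 3000 (day 0), 288 and 109 (day 4), 254 and 64.7 (day 6), then 165 and 50.03 (day 8). This was the largest fall among the 39 genes, and on replicate 2 of day 6 and of day 8 the value was under the array median. It fell, with log2 changes of -3.80, -4.15 and -4.54 (SE 0.64 each), or 13.9-fold, 17.8-fold and 23.3-fold, with adjusted p of 0.0078, 0.00476 and 0.00328. Replicate 1 was the higher array in each sorted group, by over 2-fold each time, and the day 4 call was lost without replicate 1 or 2 of day 0 (adjusted p 0.0533 and 0.0573), while those of days 6 and 8 were kept.

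SLC7A1 (CAT-1), the widespread arginine carrier, read 2209 and 2258 (day 0), 1132 and 1198 (day 4), 1608 and 924 (day 6), then 1335 and 898 (day 8). No sorted array overlapped day 0, yet the changes of -0.92, -0.86 and -1.01 (SE 0.30 each) did not pass (adjusted p 0.0827, 0.0872 and 0.0515). Its other tested probe sets did not share this fall. One changed by -0.48, -0.17 and -0.25 and another by 0.24, 0.15 and 0.22, and neither was called. SLC7A2 (CAT-2), an arginine carrier best known from liver and activated macrophages, read 938 and 937 (day 0), 1042 and 981 (day 4), 1087 and 588 (day 6), then 767 and 506 (day 8). Its arrays at day 6 lay on either side of the day 0 values, and no change passed (0.11, -0.22 and -0.57).

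**Figure D2:**
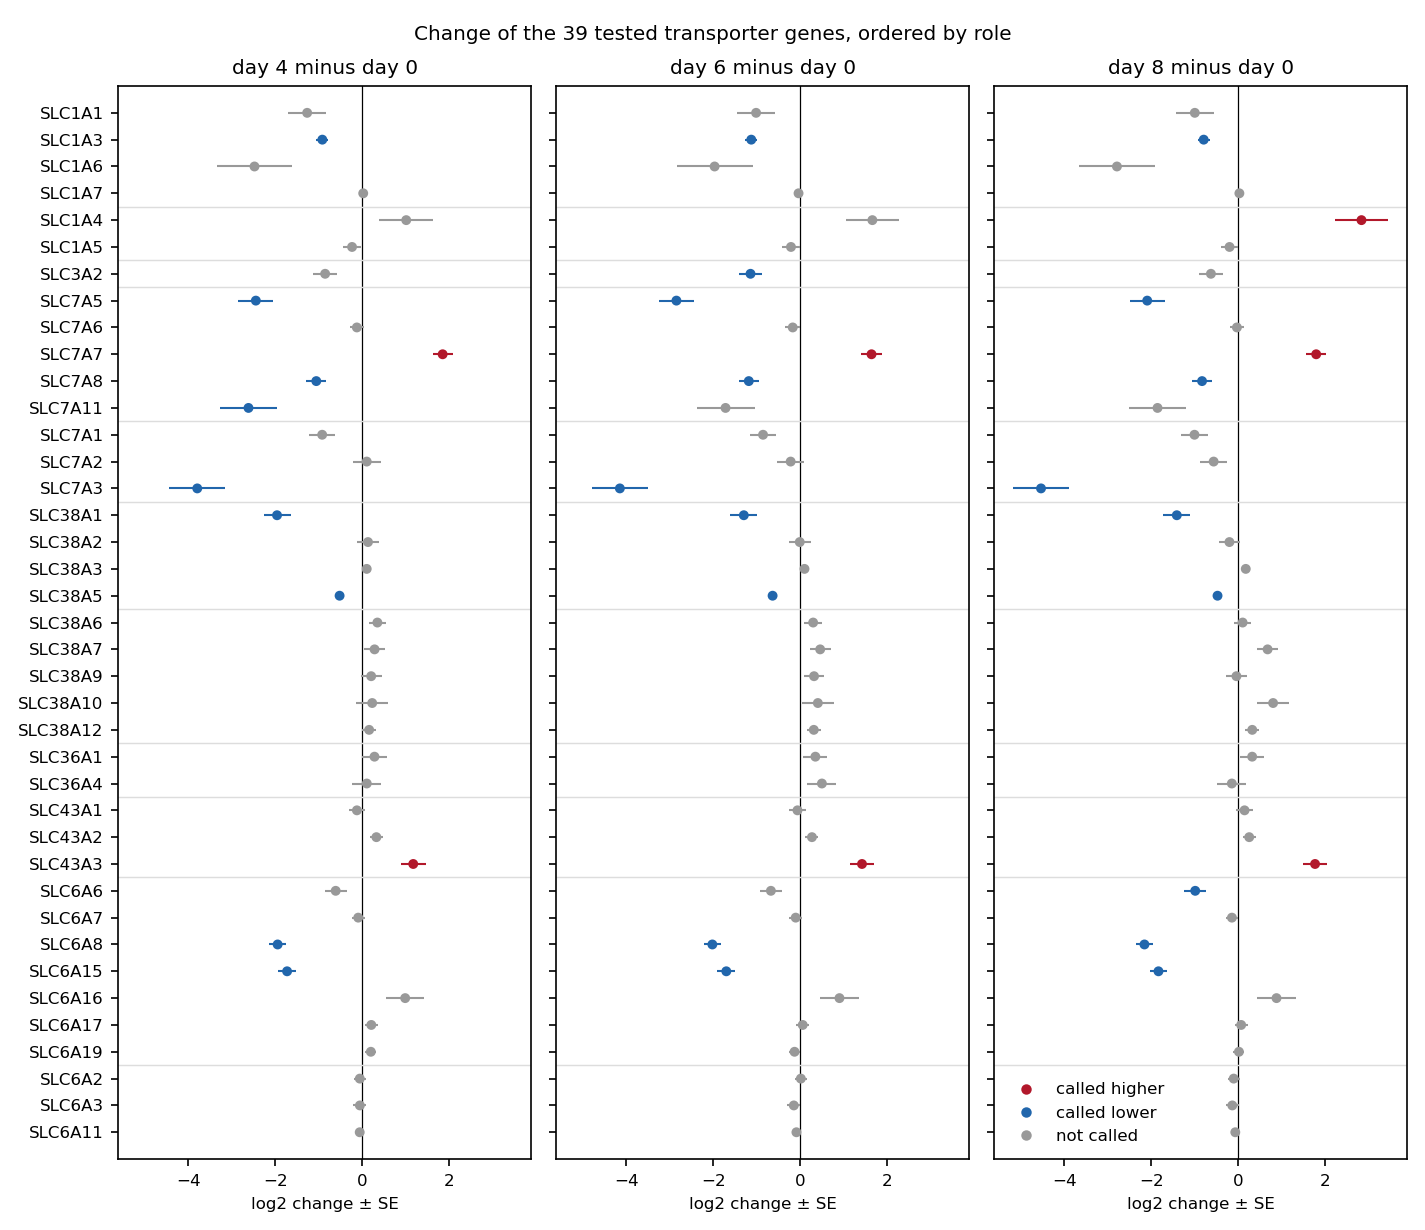
Log2 change with its SE (bars) of each of the 39 tested transporter genes at day 4, day 6 and day 8, each minus day 0, with grey lines between roles, red and blue points for genes called higher and lower at an adjusted p under 0.05 and grey points for the others. SLC7A3 lies furthest below 0 in each panel, SLC7A7 and SLC43A3 are red in all 3 and SLC1A4 at day 8.

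Of the SLC38 genes of the glutamine and alanine systems called A and N, 2 of 4 tested were called lower in each comparison with day 0 and none higher. One of them, SLC38A5, passed the filter through day 0 alone. SLC38A1 (SNAT1), a sodium-coupled importer of glutamine, read 6330 and 5918 (day 0), 1530 and 1569 (day 4), 2611 and 2338 (day 6), then 3240 and 1599 (day 8). All sorted arrays lay under the day 0 pair, and lowest together at day 4. It fell, with log2 changes of -1.96, -1.30 and -1.41 (SE 0.31 each), with adjusted p of 0.00596, 0.0258 and 0.0183. SLC38A2 (SNAT2), its close relative and the one best known for its induction by amino acid shortage, had 5256 and 4459 (day 0), 4763 and 5932 (day 4), 6031 and 3832 (day 6), then 4531 and 3905 (day 8). Its groups overlapped at each day, and at day 8 its change was -0.20 with a 95% interval of -0.80 to 0.39. The interval of SLC38A1 at day 8 was -2.15 to -0.67, which overlaps it. A difference between the genes was not tested. Another tested probe set of SLC38A1 changed by -2.05, -2.10 and -1.87 at days 4, 6 and 8. A further one changed by -1.15, -0.47 and -0.40, and was called at day 4 alone in a limma fit of every probe set.

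SLC38A5 (SNAT5), a carrier of glutamine, histidine and glycine, read between 77.6 and 91.2 on the sorted arrays, against 155 and 125 at day 0. It was near or under the array medians throughout the sorted groups. Its log2 changes of -0.52, -0.64 and -0.48 (adjusted p 0.0192, 0.00769 and 0.0223) come with the limit named above, that the gene passed the filter only through day 0. The day 4 call of SLC38A1 was lost without replicate 1 of day 0 (adjusted p 0.0562), its day 8 call without either day 0 array (up to 0.122) and its day 6 call when a single array of day 0 or day 6 was left out (up to 0.155). The calls of SLC38A5 were lost without replicate 1 of day 0 in each comparison, at days 4 and 8 without either sorted array of that day, and at day 4 in a fit of the day 0 and day 4 arrays alone (adjusted p up to 0.148, 0.0663 and 0.163 at days 4, 6 and 8).

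The other SLC38 genes had 5 of 6 members tested, and 0 were called in any comparison. SLC38A9, a lysosomal carrier that signals arginine to the kinase complex mTORC1, lay between 1418 and 2226 on all arrays. Its change at day 8 was -0.04 with a 95% interval of -0.61 to 0.53. SLC38A7, a lysosomal carrier of glutamine, had 739 and 651 at day 8, against 436 and 409 at day 0. SLC38A10 had 755 and 869 at day 8, against 471 and 431 at day 0. Both day 8 pairs lay above day 0, and the changes of 0.68 and 0.80 did not pass (adjusted p 0.0863 and 0.161).

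The SLC1 family splits into carriers of glutamate and aspartate and exchangers of neutral amino acids. Of the 4 glutamate carriers tested, SLC1A3 (EAAT1) was the only one called. It read 295 and 286 (day 0), 150 and 128.3 (day 4), 114 and 117 (day 6), then 171 and 139 (day 8), without overlap. It fell, with log2 changes of -0.92, -1.13 and -0.79 (SE 0.14 each), with adjusted p of 0.00474, 0.00175 and 0.00747. SLC1A1 (EAAT3) had 379 and 395 (day 0), 170 and 119 (day 4), 90.4 and 319 (day 6), then 179 and 176 (day 8). All sorted values were lower than both day 0 values, but the day 6 arrays were over 2-fold apart, and changes of -1.27, -1.02 and -0.999 did not pass (adjusted p 0.100, 0.153 and 0.147). SLC1A6 (EAAT4), a glutamate carrier of the cerebellum, had 499 and 614 (day 0), 172 and 22.2 (day 4), 318 and 31.98 (day 6), then 77.5 and 33.4 (day 8). Its changes of -2.48, -1.97 and -2.79 had an SE of 0.87, with replicates over 2-fold apart at days 4 and 6, and did not pass (adjusted p 0.101, 0.158 and 0.0588).

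SLC1A4 (ASCT1), an exchanger of alanine, serine, cysteine and threonine, had the largest rise of the tested transporter genes at day 8. It read 158 and 147 (day 0), 255 and 452 (day 4), 257 and 1146 (day 6), then 1087 and 1523 (day 8). Its sorted arrays were all above day 0, and at day 6 replicate 2 reached the day 8 range while replicate 1 did not. The changes were 1.01, 1.66 and 2.84 on the log2 scale (SE 0.62 each), of which the day 8 change, 7.15-fold, passed (adjusted p 0.0175) and those of days 4 and 6 did not (adjusted p 0.322 and 0.101). Day 8 was 1.82 above day 4, with a 95% interval of 0.36 to 3.29 before any adjustment and an adjusted p of 0.724. The other tested probe sets of SLC1A4 differed at day 8 in a limma fit of every probe set. One rose by 2.93 and another by 2.51, and both were called, the latter also at day 6 (1.77). A further one changed by 0.34 and another by 0.50, and neither was called (adjusted p 0.178 and 0.291).

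The summed intensity of 9 red cell genes ran near SLC1A4, with 557 and 529 (day 0), 1839 and 1078 (day 4), 1678 and 6051 (day 6), then 12028 and 8566 (day 8). Of the 9, 4 to 7 lay above the array median on the sorted arrays, against 2 and 3 at day 0. The sum of 12 genes of yolk sac and gut endoderm was 1487 and 1470 (day 0), 3699 and 26482 (day 4), 1009 and 7927 (day 6), then 15269 and 11916 (day 8), with 5 to 11 above the median on the sorted arrays and 6 at day 0. In both sums, as in SLC1A4, replicate 2 of day 6 exceeded replicate 1, but the red cell sum was higher on replicate 1 at days 4 and 8 and the endoderm sum on replicate 1 at day 8, where SLC1A4 was higher on replicate 2. Their part in the rise of SLC1A4 was not tested. SLC1A5 (ASCT2), the glutamine exchanger of many growing cells, lay between 456 and 676 on all 8 arrays, and its change at day 8 was -0.20 with a 95% interval of -0.69 to 0.29. SLC1A4 was no longer called when a single array of day 0 or day 8 was left out (adjusted p from 0.0615 to 0.111). The day 4 call of SLC1A3 was lost without replicate 1 of day 0 (adjusted p 0.0508), and its day 8 call without either day 0 array or replicate 2 of day 8 (adjusted p up to 0.0679).

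Of the SLC6 carriers of amino acids, taurine, creatine and betaine, 7 of 13 were tested, and 2, 2 and 3 were called lower at days 4, 6 and 8. SLC6A8, the creatine transporter, had 1221 and 1136 (day 0), 307 and 259 (day 4), 306 and 231 (day 6), then 253 and 226 (day 8). The replicates were close at every day. It fell, with log2 changes of -1.95, -2.02 and -2.16 (SE 0.19 each), or 3.85-fold, 4.06-fold and 4.46-fold, with adjusted p of 0.000668, 0.000534 and 0.00039. These were the smallest p of the 39 genes, and the 3 calls held under all 20 alternative settings. A pseudogene copy, SLC6A10P, is annotated apart, and whether the probes also read it was not tested.

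SLC6A15, a carrier of branched-chain amino acids and proline known from brain, read 301 and 315 (day 0), 88.3 and 55.7 (day 4), 77.7 and 67.9 (day 6), then 80.5 and 48.8 (day 8). All sorted arrays lay under the array median. The log2 changes were -1.73, -1.70 and -1.84 (SE 0.20 each, adjusted p 0.00168, 0.00155 and 0.00111), for a gene that passed the filter through day 0 alone. The summed intensity of 10 neural markers was 4315 to 7721 on the sorted arrays, against 16883 and 16298 at day 0, with 4 to 10 above the array median on the sorted arrays and 10 and 9 at day 0. Of the 10, 4, 5 and 3 were called lower at days 4, 6 and 8, and their part in the values of SLC6A15, SLC1A2 and SLC1A6 was not tested. SLC6A6, the taurine transporter, had 2137 and 2055 (day 0), 1061 and 1747 (day 4), 1385 and 1223 (day 6), then 1013 and 1067 (day 8). Every sorted value was lower than day 0. Its fall of 0.99 ± 0.25 at day 8 passed (adjusted p 0.0297), and the changes of -0.61 and -0.67 at days 4 and 6 did not (adjusted p 0.149 and 0.101). It was no longer called when a single array of day 0 or day 8 was left out (adjusted p from 0.123 to 0.174), or when its probe sets were averaged, which gave -0.25 (adjusted p 0.0784). SLC6A16, an orphan member, read 221 and 236 (day 0), 272 and 848 (day 4), 467 and 445 (day 6), then 465 and 432 (day 8), and its changes of 0.99, 0.90 and 0.88 did not pass. SLC6A9, the glycine transporter, was not tested. Of 5 SLC6 carriers of GABA and monoamines 3 were tested and 0 called, with changes between -0.15 and 0.02.

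SLC43A3, which carries purine bases rather than amino acids although it belongs to this family, was the other gene higher in all 3 comparisons. It had 250 and 287 (day 0), 613 and 681 (day 4), 565 and 1053 (day 6), then 962 and 1022 (day 8). All sorted arrays were above day 0. It rose by 1.18, 1.42 and 1.77 on the log2 scale (SE 0.28 each), with adjusted p of 0.0308, 0.0131 and 0.00543. None of these calls remained without replicate 1 of day 0 (adjusted p 0.200, 0.107 and 0.0562), while leaving out replicate 2 of day 0 kept only that of day 8 (0.140 and 0.0758 for the others). The day 4 call was also lost when a single array of day 4 or day 8 was left out (up to 0.103), and the day 6 call in a fit of the day 0 and day 6 arrays alone (0.0537).

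The leucine and phenylalanine carriers SLC43A1 (LAT3) and SLC43A2 (LAT4) lay between 156 and 261 and between 104 and 161. At day 8 their changes were 0.15 and 0.25, with 95% intervals of -0.31 to 0.60 and -0.10 to 0.61. SLC36A1 (PAT1), a proton-coupled carrier of small amino acids on lysosomes, lay between 979 and 1649, with a change of 0.32 at day 8 and a 95% interval of -0.34 to 0.98. SLC36A4 lay between 259 and 627, with its highest value on replicate 1 of day 6, and 0 of the 2 tested SLC36 genes were called.

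Within the sorted cells, day 6 against day 4, day 8 against day 6 and day 8 against day 4 gave 0 calls among the 39 transporter genes in limma, where 0 of all 13647 genes were called (0%). At an unadjusted p under 0.05 there was 1 of 39 in each, where the counts over all genes were 722, 338 and 887. The medians of the 39 genes were -0.03, 0.01 and -0.01. Of the transporter genes named above, SLC1A4 had the largest difference between day 8 and day 4. SLC7A11 and SLC7A3 followed with 0.76 and -0.74, both with replicates over 2-fold apart at both days.

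**Figure D3:**
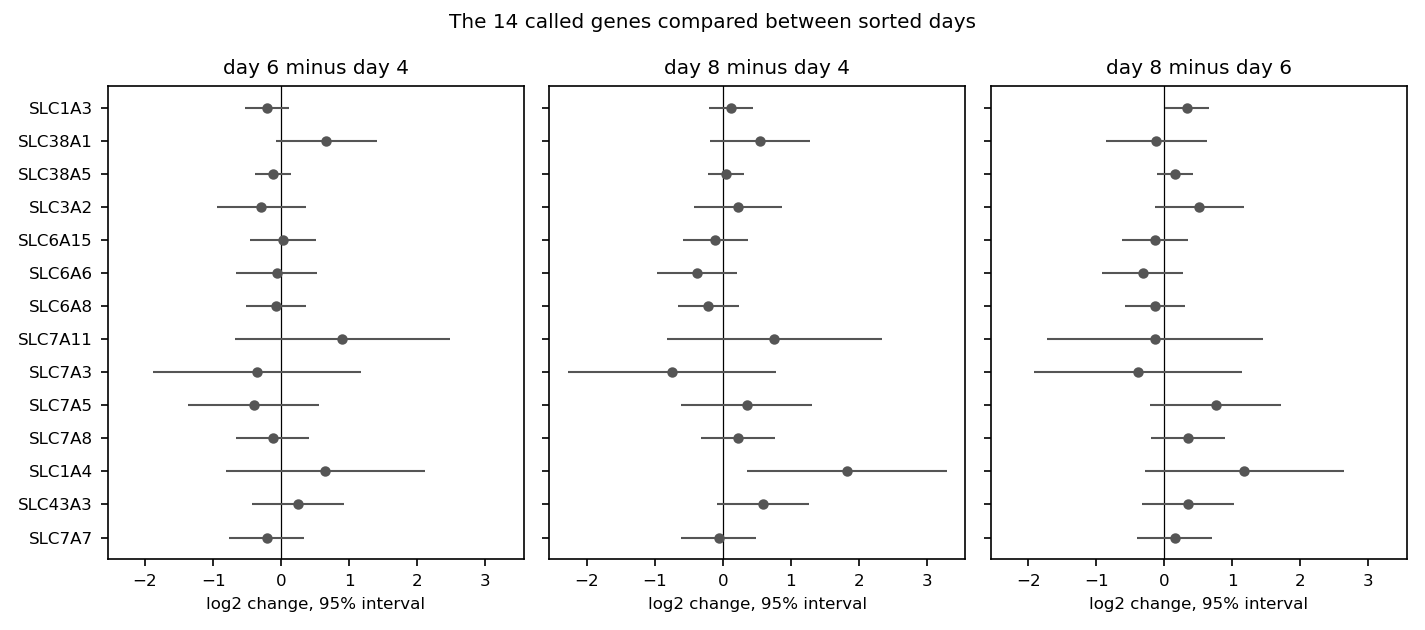
Log2 change with its unadjusted 95% interval (bars) of the 14 called genes between sorted groups, in 3 panels for day 6 minus day 4, day 8 minus day 4 and day 8 minus day 6. SLC1A4 is highest, at 1.82 for day 8 minus day 4, and 0 of these changes were called after adjustment.

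Replicates of several of these genes lay far apart. At day 0 none of the 39 genes had arrays over 2-fold apart, against 5 at day 4 (SLC1A6, SLC38A10, SLC6A16, SLC7A11 and SLC7A3), 5 at day 6 (SLC1A1, SLC1A4, SLC1A6, SLC7A3 and SLC7A5) and 3 at day 8 (SLC38A1, SLC7A11 and SLC7A3). Without replicate 1 of day 4 and replicate 1 of day 6 together, which leaves 1 array at each of these days, the counts called against day 0 were 18, 19 and 19 at days 4, 6 and 8, where 34.9%, 44.7% and 49.7% of all genes tested were called. These held 10 of the 11, 11 of the 11 and 12 of the 12 genes called with all arrays, and SLC7A11 at day 4 was the 1 lost. SLC1A6, SLC38A10, SLC6A16 and SLC7A1 were gained in all 3.

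Other probe sets of the called genes changed with the same sign, but not always by a like size. There were 11, 10 and 15 such probe sets for the genes called at days 4, 6 and 8, of which 11, 10 and 15 had the same sign and 9, 8 and 8 were called the same way, with 0 called the other way. At day 8 the other tested probe sets of SLC7A8 changed by -0.51, -0.006 and -0.18, against -0.83 for the one used, and none was called. That of SLC6A6 changed by -0.14 at day 8, against -0.99 for the one used, and was not called. The other tested probe set of SLC43A3 changed by 1.01, 0.85 and 1.34 at days 4, 6 and 8. In a limma fit of every probe set it was called at day 8 alone (adjusted p 0.0583, 0.0828 and 0.0183). For 4 genes that were not called, another probe set was. SLC1A2 (EAAT2), the main glutamate carrier of astrocytes, had a probe set between 19.3 and 40.5 on the sorted arrays, against 136 and 130 at day 0. Its changes were -1.57, -1.61 and -1.38 (adjusted p 0.00061, 0.000492 and 0.000957 in a limma fit of every probe set). One of SLC1A6 lay between 15.3 and 42.96 on the sorted arrays, against 162 and 153 at day 0, with changes of -1.75, -1.67 and -1.82. Both probe sets were above the array median at day 0 and below it elsewhere, so they too passed the filter through day 0 alone. One of SLC38A10 rose by 0.85, 0.65 and 0.79 on the log2 scale, and one of SLC38A7 by 0.73 at day 6 and 0.70 at day 8. No further tested probe set of these genes was called. The changes lay between -0.15 and 0.15 for the further ones of SLC38A10. They were -0.15, -0.12 and -0.18 for SLC1A6, 0.11, 0.19 and 0.05 for SLC1A2 and 0.24, 0.52 and 0.73 for SLC38A7. These 4 genes were singled out after their values were seen.

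The enzymes and regulators around these carriers were read from 9 lists, whose members overlap in part. Of all genes tested, 9.91%, 13.6% and 14.1% were called lower at days 4, 6 and 8, and 8.52%, 9.73% and 10.4% higher. Of 24 tested genes of the amino acid response, 6, 6 and 9 were called lower at days 4, 6 and 8 and 3, 3 and 3 higher, with list medians of -0.31, -0.43 and -0.76. Those with the smallest p included ATF3 and CHAC1, which fell, with log2 changes of -2.25, -3.28 and -2.85 and of -1.38, -1.16 and -1.13, and NDRG1, a hypoxia-induced gene, which rose by 1.34, 1.89 and 1.08. INHBE, an activin subunit, fell, with changes of -1.74, -1.72 and -1.74, and passed the filter through day 0 alone. ASNS, the asparagine synthetase that is the best known target of ATF4, had 5311 and 5005 (day 0), 1182 and 453 (day 4), 1410 and 559 (day 6), then 899 and 349 (day 8). Its changes were -2.76, -2.49 and -3.12 (adjusted p 0.0247, 0.0306 and 0.0131). TRIB3 and HERPUD1, of the same list, were called higher in each comparison, as NDRG1 was. They rose by 1.61, 1.73 and 1.67 and by 1.02, 1.001 and 0.93.

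For serine, glycine and one-carbon synthesis, 5, 8 and 9 of 18 tested genes were called lower and 0, 2 and 1 higher, with medians of -0.68, -0.65 and -0.84. GLDC, the glycine decarboxylase, lay between 170 and 508 on the sorted arrays, against 3652 and 3489 at day 0, and fell, with changes of -3.25, -3.94 and -3.32. PHGDH, the first enzyme of serine synthesis, fell, with changes of -0.79, -1.81 and -1.08, and AMT, with changes of -1.07, -1.11 and -1.04. AHCY fell at days 6 and 8, with changes of -1.27 and -0.86.

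Among the 19 tested genes of arginine, nitric oxide and polyamine metabolism, 5, 4 and 5 were called lower and 4, 2 and 2 higher. ASS1, which makes argininosuccinate from citrulline, lay between 113 and 304 on the sorted arrays, against 2519 and 2297 at day 0, and fell, with changes of -3.15, -3.72 and -3.99. GATM, which makes the precursor of creatine from arginine and glycine, lay between 52.7 and 138 on the sorted arrays, against 1008 and 867 at day 0, and fell, with changes of -2.83, -3.01 and -2.94. AGMAT and AZIN1 fell as well, with changes of -1.31, -1.72 and -1.82 and of -1.23, -1.25 and -1.48. NOS3, the endothelial synthase that uses arginine to make nitric oxide, rose by 1.84, 1.88 and 2.16, was chosen after its values were seen, and passed the filter through sorted arrays alone.

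Of 16 genes of branched-chain, tryptophan and threonine catabolism, 5, 9 and 6 were called lower and 1, 0 and 0 higher. IDO1, which degrades tryptophan, lay between 102 and 135 on the sorted arrays, against 5654 and 5650 at day 0, and fell 37.3-fold, 39.1-fold and 34.2-fold. GCAT and BCKDHB fell in each comparison, with changes of -1.39, -1.77 and -1.62 and of -1.04, -1.15 and -1.41, and HIBADH at days 6 and 8, with -1.004 and -0.76. Of 16 enzymes of glutamine, glutamate, aspartate and proline, 3, 3 and 4 were called lower and 0 higher, among them PRODH, which starts proline breakdown, with log2 changes of -1.81, -1.78 and -1.52. CAD, which starts pyrimidine synthesis, fell, with changes of -1.09, -1.30 and -0.79, and PPAT fell by 1.46 at day 8.

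Of 17 cytosolic aminoacyl-tRNA synthetases 3, 3 and 4 were called lower and 0 higher, among them LARS1 (-0.94, -1.28 and -0.90), AARS1 (-0.91, -0.97 and -0.74) and TARS1 (-1.36, -1.33 and -1.57) in each comparison and EPRS1 at day 8 (-0.73). Of 28 genes of amino acid sensing by mTORC1, 1, 3 and 3 were called lower and 2, 3 and 3 higher, with FNIP2, a partner of folliculin, higher in each (1.53, 1.55 and 1.61), CASTOR1, an arginine sensor, higher at days 4 and 6 (0.87 and 0.55), and LAMTOR4, a subunit of its lysosomal anchor, lower at days 6 and 8 (-1.35 and -1.02). Of 17 genes of cystine and glutathione metabolism, 1, 2 and 2 were called lower and 1, 1 and 1 higher. These were NQO1, a quinone reductase, higher in each comparison (1.35, 1.71 and 1.63), CD44, of which a splice form stabilises SLC7A11 at the cell surface, lower in each (-0.97, -0.82 and -0.66), and GGT7, lower at days 6 and 8 (-0.60 and -0.48), which passed the filter through day 0 alone. Of 16 tested carriers outside the 7 families, 3, 3 and 5 were called lower and 1, 1 and 1 higher. They included the ornithine carrier of mitochondria SLC25A15, which fell, with changes of -0.68, -0.77 and -0.71, SLC15A3, which fell, with changes of -0.62, -0.57 and -0.69, and SLC32A1, the vesicular GABA carrier, which rose by 2.71 and 2.59 at days 4 and 6, while its change of 1.20 at day 8 did not pass. It passed the filter through sorted arrays alone. CTNS, the cystine exporter of lysosomes, rose by 0.66 at day 8. The share called lower in these lists is to be read against the 9.91%, 13.6% and 14.1% of all genes called lower at days 4, 6 and 8. The share called higher is to be read against 8.52%, 9.73% and 10.4%.

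**Figure D4:**
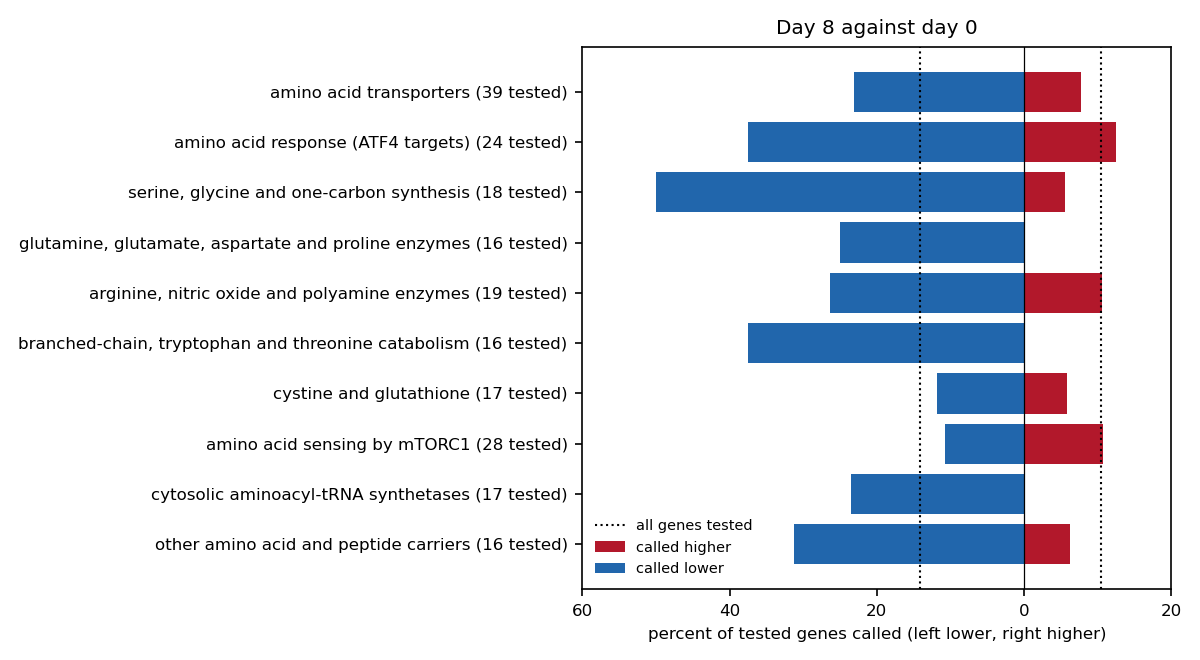
Percent of tested genes called lower (blue, to the left of 0) and higher (red, to the right) at day 8 against day 0, for the transporter genes and 9 lists of related genes, with dotted lines at the 14.1% and 10.4% of all genes tested. The bar to the left is longest for serine, glycine and one-carbon synthesis, with 9 of 18 genes, and stays short of the dotted line for the lists of cystine and glutathione and of amino acid sensing by mTORC1.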

How the data were processed

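RNA of 8 samples was measured on Affymetrix expression arrays. The authors deposited 1 linear intensity per probe set and array, made with MAS5 per the submitters' processing notes. Its version and scaling step are not given in the sources used here, and no detection calls were used. Sample titles gave the groups and replicate numbers. The source names of 3 samples of days 6 and 8 give day 4, against their titles, descriptions and stages, and the titles were followed.

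The platform annotation holds 54675 probe sets, of which 62 were controls, 41091 had 1 gene symbol, 1801 several and 11721 none, and 41037 matched the reference gene table by gene ID, with 0 symbols changed. SLC36A2, SLC36A3 and SLC38A8, also of these families, were not analysed here. For each gene the brightest probe set stood in, by mean log2(intensity + 32). To be tested, a gene had to exceed the median of at least 2 of the 8 arrays, which 13647 of 19775 did. A single limma fit (version 3.58.1, R 4.3.3) covered the 8 arrays with 1 coefficient a group and a trended eBayes prior, and gave two-sided p adjusted by Benjamini-Hochberg over the 13647 genes. Its residual degrees of freedom were 4 and its prior ones 2.84, so the number of arrays limits the precision. Simulated data of 13647 genes for day 4 against day 0 held 72, 63 and 65 genes with log2 changes of 1, 2 and 3. The fit found 38.9%, 77.8% and 92.3% of them, beside 9 false calls. A like simulation of day 8 against day 4 changed 61, 68 and 71 genes. There the fit found 41%, 79.4% and 87.3%, beside 17 false calls. Both simulations changed far fewer genes than the 2516 called at day 4 in the data, so these shares may not carry over.

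Named with values were every transporter gene called in any comparison, a fixed set of well-known members, and up to 4 called members of each related list by smallest adjusted p. The transporter genes, the lists and this rule were chosen with earlier results of these data known. TRIB3 and HERPUD1 were named beyond this rule, after their values were seen. Promoter windows were matched by gene symbol for 42 genes. As alternatives, the offset was set to 1 and to 128, the filter was dropped or moved to the 75th percentile, arrays were quantile normalized or centred on their medians, probe sets were averaged or fitted singly, the trend was dropped, the fit was limited to the arrays compared, a replicate block was added, and arrays were left out. With an array left out the same genes were tested, and the remaining array of that group was taken to vary as the other groups do. Python 3.11.15 with matplotlib 3.10.9 drew the figures.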

Additional observations from a re-analysis of the deposited data

How the results depend on the processing

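No called change of a transporter gene reversed under any of the 20 alternatives, the calls of SLC6A8 and SLC7A7 held in all of them, and those of SLC6A15 in the 19 that could be run for it. With single arrays left out, the counts of transporter genes called ranged from 3 to 15 for day 4, 6 to 13 for day 6 and 4 to 16 for day 8 against day 0, and were 0 for each comparison between sorted groups. The same fits called 7.26% to 23%, 8.83% to 26.3% and 8.92% to 31.9% of all genes tested. The lowest came without replicate 1 of day 0 (3, 6 and 4). Without replicate 2 of day 0 they were 6, 7 and 6, and 6 were called at day 8 without its own replicate 2. Leaving out the first replicates of days 4 and 6 at once gave 18, 19 and 19, beside 34.9%, 44.7% and 49.7% of all genes. With every probe set on its own, and the smallest p taken for each gene, the day 6 count was 17, beside 26.9% of all genes. With only the arrays compared the day 8 count was 19, beside 49.7% of all genes. The cause of these shifts was not tested beyond the loss of arrays. The correlation of same-numbered deviations was -0.02, 0.02 and 0.02 between day 0 and days 4, 6 and 8, and 0.60, 0.41 and 0.19 between days 4 and 6, 6 and 8, and 4 and 8. Same-numbered sorted arrays thus deviated together and those of day 0 did not, and as no label gives a shared batch, the numbers were not taken as a pairing. With the number as a replicate block the counts against day 0 were 14, 14 and 14, beside 22.3%, 28.4% and 31.1% of all genes, and 0 between sorted groups. SLC1A6 and SLC7A1 were gained in all 3, SLC3A2 at day 4 and SLC1A4 at day 6. SLC1A3, SLC38A5 and SLC6A15 fell below a filter at the 75th percentile and have no value there. Having 2 arrays a group limits every call.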
